A study of Mus musculus with 3 samples.

Results

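In total, 4 ligands and 3 receptors of the fibroblast growth factor (FGF) family were followed through the cell classes of the adult mouse lacrimal gland (LG), the exocrine gland that makes the watery layer of the tears. The ligands were *Fgf10*, *Fgf7*, *Fgf1* and *Fgf2*, and the receptors were *Fgfr1*, *Fgfr2* and *Fgfr3*. These 7 genes were taken by name from the 32285 genes of the count tables, and every one of them had counts. Whole LGs of C57BL/6J mice aged 2 months were dissociated and run on the 10x Chromium platform, in 1 female and 2 male libraries. Each library pooled 6 glands of 3 mice, so that a library is 1 replicate and the spread between libraries is not a spread between single animals. The female cells went through the Scripps core and the male cells, on a different day, through the Salk core. The effects of sex, of core and of day thus cannot be told apart, and no test between the sexes was made. Values in a row of 3 belong to the female, male 1 and male 2 libraries, in that order.

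FGFs are secreted proteins that are held by heparan sulfate chains at the cell surface and signal through receptor tyrosine kinases. *Fgf10* and *Fgf7* are mesenchymal ligands that act mainly on an epithelial splice form of *Fgfr2*, and *Fgf10* from the mesenchyme is needed for the LG to bud from the embryonic epithelium. *Fgf1* and *Fgf2* have no classical secretion signal, and *Fgf1* can bind all the FGF receptors. The counts are tags of transcript 3′ ends, so the splice forms of *Fgfr2* and *Fgfr1* could not be told apart, and levels were not compared between genes.

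The stretches of 250 bases before the RefSeq start sites of *Fgf10* and *Fgf7* are shown because these ligands share a receptor form and were both highest in fibroblast-like cells, where *Fgf2*, not shown, was highest too. They come from RefSeq on GRCm38.p6, both on the plus strand, at chr13:118714449-118714698 and chr2:126034408-126034657. Capitals mark matches on either strand to the TATA box TATAAA, to the CCAAT box, whose letters are CCAAT, and to the core of the Sp1 motif, GGGCGG. The last of these reads CCGCCC on the other strand, and each stretch held 1 match in all.
Fgf10: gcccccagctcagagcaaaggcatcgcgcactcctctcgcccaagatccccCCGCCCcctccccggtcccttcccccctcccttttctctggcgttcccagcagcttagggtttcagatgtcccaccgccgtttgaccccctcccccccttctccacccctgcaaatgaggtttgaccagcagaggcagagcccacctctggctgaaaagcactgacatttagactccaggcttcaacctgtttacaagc
Fgf7: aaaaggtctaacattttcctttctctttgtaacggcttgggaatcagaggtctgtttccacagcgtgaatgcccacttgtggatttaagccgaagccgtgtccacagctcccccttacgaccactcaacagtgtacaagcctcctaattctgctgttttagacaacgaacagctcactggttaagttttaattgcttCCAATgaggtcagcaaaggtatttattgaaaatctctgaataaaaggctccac
The *Fgf10* stretch held 1 GGGCGG, 199 bases before the start, and was 61.2% G or C. The *Fgf7* stretch held 1 CCAAT, 53 bases before the start, and was 43.6% G or C. Among 32851 RefSeq promoters of the same length, 32.7% held GGGCGG, 33.8% CCAAT and 12.4% TATAAA. In the GENCODE vM21 annotation of the same genome, *Fgf7* (chromosome 2, 126034658 to 126091185, plus strand) begins at the RefSeq start. *Fgf10* (chromosome 13, 118669791 to 118792115, plus strand) begins further upstream, and the stretch shown lies in an intron of longer noncoding transcripts, where the antisense gene *Gm16263* overlaps it. *Fgf2* lies on chromosome 3 (37348346 to 37410108, plus strand), *Fgfr3* on chromosome 5 (33721674 to 33737068, plus strand), *Fgfr2* on chromosome 7 (130162451 to 133123350, minus strand) and *Fgfr1* on chromosome 8 (25513654 to 25575718, plus strand).

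Counts of unique molecular identifiers (UMIs, 1 per captured molecule) were read in 7652, 5295 and 5397 cells. The median cell held 3254, 1885 and 1789 of them. Clustering without the 7 genes gave 27 clusters, of which 23 took the name of 1 of 12 classes from marker genes, and "-like" marks such a name. The fibroblast markers were highest in fibroblast-like cells for 6 of 6 genes, the endothelial markers for 5 of 5, the duct markers for 6 of 7 and the markers of myoepithelial cells (MECs) for 4 of 6. The *Tfrc*hi markers were highest in *Tfrc*hi-like cells for only 2 of 4, and 282 of these 584 cells kept that class when each cell took the class of its highest marker score. Over all 17637 named cells, 80.9% kept theirs. No cluster was named for Schwann cells, lymphatic endothelium, erythroid cells or B and plasma cells. Each pair of libraries had between 12 and 18 called barcodes in common. Tear-product transcripts from acinar cells reached all droplets and made up 29.2, 49.4 and 58.5% of the UMIs of fibroblast-like cells. For that reason a level is given as UMIs of the gene per 1000000 UMIs outside tear-product and mitochondrial genes (CPM), as mean ± SD over 3 libraries. The members themselves were sparse in droplets without a cell: of 36703, 35345 and 7247 uncalled barcodes with 1000 to 2000 UMIs, at most 37 of 35345 (0.105%, *Fgf1* in male library 1) held a UMI of any of the 7 genes after thinning to 1000 UMIs.

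*Fgf10* was found almost wholly in fibroblast-like cells. These cells held 1280 of 1284, 158 of 159 and 86 of 87 of its UMIs, or 99.6% of 1530. The level was 346, 285 and 258 CPM (296 ± 45.1, n = 3). All 3 libraries were thus high in fibroblast-like cells, and no other class came near: mural-like cells, next in order, had 2 UMIs, and their range lay below that of the fibroblast-like cells. Against all other cells the log2 fold change was 10.14 (SE 0.30, adjusted p = 1.68e-07, edgeR's quasi-likelihood test with Benjamini-Hochberg adjustment, here and throughout). It was 7.72 when each cell took the class of its highest marker score instead. After thinning to 1000 UMIs, 20.1% of fibroblast-like cells of the female library had an *Fgf10* UMI (exact 95% binomial interval 18.2 to 22.2%), with 14.5% (11.7 to 17.5%) and 12.6% (9.22 to 16.6%) in the male libraries. Without thinning the shares were 44.9, 18.0 and 15.9%, at a median of 3117, 1529 and 1251 UMIs. In lymphoid-like cells, which should lack the gene, 0 of 771, 0 of 281 and 0 of 242 thinned cells had one, with exact upper limits of 0.477, 1.30 and 1.51%. Such intervals cover counting error only.

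*Fgf7*, also known as keratinocyte growth factor, had a second source in MEC-like cells. Fibroblast-like cells held 457 of its 499 UMIs, at 109, 68.5 and 51.0 CPM (76.0 ± 29.6, n = 3). MEC-like cells held a further 41 UMIs, at 35.7, 29.0 and 20.1 CPM (28.2 ± 7.80, n = 3), and the 1 UMI left was in a duct-like cell. The ranges of fibroblast-like and MEC-like cells did not overlap, and both lay above every other class. The log2 fold change of fibroblast-like cells against all other cells was 5.62 (SE 0.29, adjusted p = 1.47e-06). Among epithelial cells, that of MEC-like cells against the rest was 7.78 (SE 0.82, adjusted p = 3.11e-04), with a single UMI on the other side, and 6.25 with classes by highest marker score. Without the female library, which held 29 of the 41 MEC-like UMIs, *Fgf7* did not pass the filter on low counts in this comparison. Thinned MEC-like cells had an *Fgf7* UMI in 1.45, 0.943 and 1.23% of cells, against 7.43, 3.87 and 2.69% of fibroblast-like cells and 0% of lymphoid-like cells.

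*Fgf2* was the scarcest member, with 139 UMIs in all. Fibroblast-like cells held 127 of them, at 30.0, 16.2 and 21.0 CPM (22.4 ± 7.0, n = 3). The log2 fold change against all other cells was 5.59 (SE 0.59, adjusted p = 8.51e-05). A further 8 UMIs lay in myeloid-like cells of the female library, while a single UMI set the mural-like level and made its range overlap that of fibroblast-like cells.

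*Fgf1* was the only ligand of the 4 that was highest in epithelium. MEC-like cells had 197, 152 and 141 CPM (163 ± 29.6, n = 3; 230 UMIs). Duct-like cells had 166, 93.8 and 114 (125 ± 37.0, n = 3; 502 UMIs). The ranges of these 2 classes overlapped, and both lay above all other classes. *Tfrc*hi-like cells (51.6 ± 15.8) and *Ltf*+-like cells (47.6 ± 10.4) came next and overlapped each other, followed by mural-like and acinar-like cells. Epithelial-like cells together had 98.3, 46.7 and 45.0 CPM, against 2.90, 4.74 and 4.8 in all other cells. The log2 fold change of 4.00 (SE 0.46, adjusted p = 9.74e-04) was 3.02 without the female library. In thinned cells, 12.5, 7.23 and 8.20% of MEC-like cells and 10.5, 3.47 and 4.62% of duct-like cells had an *Fgf1* UMI, against 0.130, 0.356 and 0% of lymphoid-like cells.

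*Fgfr1*, the receptor most often found in mesenchyme, was shared between MEC-like, fibroblast-like and duct-like cells. MEC-like cells had 360, 228 and 216 CPM (268 ± 80.0, n = 3; 399 UMIs). Fibroblast-like cells had 204, 141 and 168 (171 ± 31.6, n = 3; 887 UMIs), below the MEC-like range. Duct-like cells had 97.6, 93.8 and 145 (112 ± 28.3, n = 3; 318 UMIs), which overlapped the fibroblast-like range. Below a gap came *Tfrc*hi-like, mural-like, endothelial-like (19.1 ± 8.31) and acinar-like cells (14.7 ± 3.06), whose ranges overlapped. The log2 fold change of fibroblast-like cells against all other cells was 2.40 (SE 0.23, adjusted p = 4.50e-05), and that of MEC-like cells against other epithelial cells was 3.17 (SE 0.25, adjusted p = 8.63e-05). Thinned MEC-like cells had an *Fgfr1* UMI in 23.0, 8.49 and 9.02% of cells, fibroblast-like cells in 12.6, 6.05 and 9.88%, and lymphoid-like cells in 0.130, 0 and 0%.

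*Fgfr2*, the receptor of *Fgf10* and *Fgf7*, was an epithelial transcript of MEC-like and duct-like cells. MEC-like cells had 168, 116 and 151 CPM (145 ± 26.8, n = 3; 199 UMIs). Duct-like cells had 85.0, 102 and 78.3 (88.4 ± 12.2, n = 3; 274 UMIs), below the MEC-like range and above that of *Car6*hi-like cells (20.5 ± 19.6, 6 UMIs). Acinar-like cells, the secretory cells, had only 3.87, 5.92 and 2.57 (4.12 ± 1.69, n = 3; 31 UMIs), and fibroblast-like cells had 7 UMIs in all. The log2 fold change of epithelial-like cells against all other cells was 4.61 (SE 0.49, adjusted p = 7.71e-04), with 3.33 without the female library and 3.75 with classes by highest marker score. Within the epithelium it was 2.89 (SE 0.40, adjusted p = 1.25e-03) for MEC-like cells, or 3.6 without the female library. For duct-like cells it was 1.89 (SE 0.32, adjusted p = 2.82e-04), or 2.76 without that library.

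*Fgfr3* was found in duct-like and endothelial-like cells. Duct-like cells had 45.4, 40.8 and 24.1 CPM (36.7 ± 11.2, n = 3; 140 of 213 UMIs). Endothelial-like cells had 27.3, 37.1 and 9.55 (24.6 ± 14.0, n = 3; 58 UMIs), and the ranges of these 2 classes overlapped. No other class had more than 7 UMIs, and MEC-like cells, the leading class for the other receptors, had 2. The log2 fold change of duct-like against other epithelial cells was 4.94 (SE 0.58, adjusted p = 8.30e-06), and 6.53 without the female library. That of endothelial-like against all other cells was 2.44 (SE 0.50, adjusted p = 3.37e-04), with 3.93 without the female library and 1.78 without male library 1. In thinned cells the shares were low, at 2.59, 2.21 and 0.840% of duct-like cells and 1.62, 1.43 and 0.844% of endothelial-like cells, against 0 of 771 lymphoid-like cells of the female library.

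**Figure D1:**
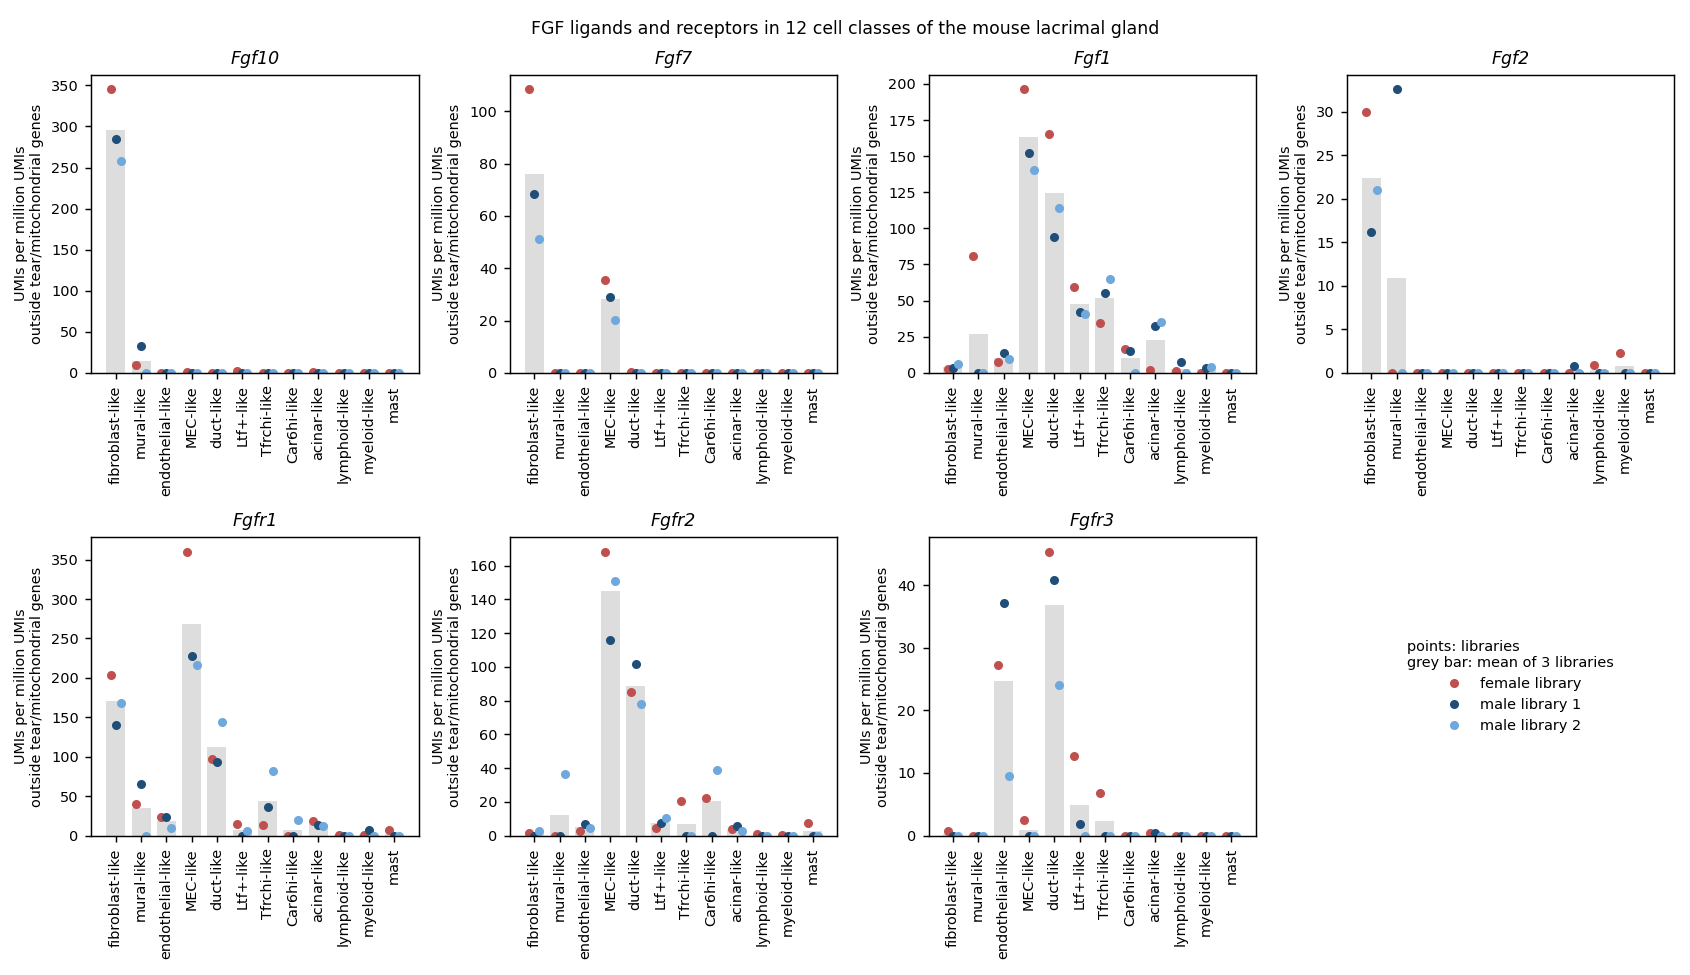
Level of each of the 7 genes (y axis, CPM outside tear-product and mitochondrial genes) in 12 cell classes (x axis), with a point per library and a grey bar at the mean of 3 libraries. *Fgf10*, *Fgf7* and *Fgf2* peak in fibroblast-like cells, *Fgf1*, *Fgfr1* and *Fgfr2* in MEC-like cells and *Fgfr3* in duct-like cells; the mural-like point of *Fgf2* is a single UMI.

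Fibroblast-like cells were set against all other cells to ask which members the stroma of fibroblasts supplied. Of the 7 members, 4 were higher (*Fgf10*, *Fgf7*, *Fgf2* and *Fgfr1*), where 18% of the 12759 genes tested were higher at the same threshold. The other 3 were lower (*Fgf1*, *Fgfr2* and *Fgfr3*), against 22.3% of all genes. *Fgf10*, *Fgf7* and *Fgf2* passed the filter on low counts only through fibroblast-like cells, so that their direction was fixed by it. *Fgfr2* and *Fgfr3*, at 7 and 3 fibroblast-like UMIs, relied on the other cells to pass. The counts of 4 higher and 3 lower are thus not a result in themselves. The fibroblast-like level of *Fgf1* was 4.01 ± 1.82 CPM, with a log2 fold change of -3.88 (SE 0.42, adjusted p = 1.03e-04), or -2.84 without the female library. For *Fgfr2* the log2 fold change was -4.08 (SE 0.55, adjusted p = 3.75e-04), or -3.46 without the female library. For *Fgfr3*, with 3 fibroblast-like UMIs, it was -4.13 (SE 0.73, adjusted p = 1.83e-03), but the call was lost with no library term in the fit (adjusted p = 0.0606).

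Epithelial-like cells had the opposite set. *Fgfr2* and *Fgf1* were higher, where 23.3% of 13464 genes tested were higher, and *Fgf10*, *Fgf7* and *Fgf2* were lower, where 28.3% were. *Fgf10*, *Fgf7* and *Fgf2* passed the filter on low counts only through the other cells. Their direction was thus fixed by it, and these calls restate where the genes are high. *Fgf10* had 4 UMIs in all epithelial-like cells, with a log2 fold change of -8.44 (SE 0.38, adjusted p = 1.01e-04), or -6.98 with classes by highest marker score. That of *Fgf7*, with its MEC-like UMIs on the epithelial side, was -3.34 (SE 0.27, adjusted p = 3.08e-04), and that of *Fgf2* was -5.65 (SE 0.90, adjusted p = 3.43e-03), with -4.22 without the female and -8.74 without the male 1 library. *Fgfr1* and *Fgfr3* were not called, at -0.43 (SE 0.24, adjusted p = 0.173) and 0.80 (SE 0.74, adjusted p = 0.403). Without the female library the value of *Fgfr1* was -0.80 and passed the test (adjusted p = 8.05e-05). Epithelial-like cells had 91.6, 33.0 and 29.6 CPM of *Fgfr1* against 76.4, 50 and 41.8 in other cells, so the female library lay on the other side of the male ones. Duct-like cells, which carry *Fgfr1* and *Fgfr3*, made up 41.7, 11.7 and 8.48% of the epithelial-like cells, and acinar-like cells 30.2, 52.1 and 61.1%. The part of this mix of classes in the difference between libraries was not tested.

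In endothelial-like cells 6 members were tested, and *Fgfr3* was higher (15.9% of 12377 genes were) and the other 5 lower (24.8%). *Fgf10* and *Fgf7* had 0 UMIs there and were at least 42.3-fold and 13.8-fold lower than in all other cells, counting 3 UMIs over the class as the floor. For *Fgf10* DESeq2 gave an adjusted p of 0.0669. The calls of *Fgf1*, *Fgfr1* and *Fgfr2* were lost when libraries were scaled by their totals, and those of *Fgfr1* and *Fgfr2* when the female library was left out, leaving 3 members called. In myeloid-like cells (27.3% of 12360 genes lower) and lymphoid-like cells (26.9% of 11852 genes lower), the 5 members tested, *Fgf10*, *Fgf7*, *Fgf1*, *Fgfr1* and *Fgfr2*, were lower. In both, *Fgf10* and *Fgf7* had 0 UMIs, which put *Fgf10* at least 98.3-fold lower in myeloid-like and 26.1-fold lower in lymphoid-like cells. *Fgf7* was at least 32.1-fold and 8.50-fold lower. The 5 members tested in these classes passed the filter on low counts only through the other cells, as *Fgf10* and *Fgf7* did in the endothelial-like comparison. *Fgfr3* passed it in that comparison only through endothelial-like cells. Such calls restate where a gene is high and are no separate result. In lymphoid-like cells the calls of *Fgf10* and *Fgf7* were lost with DESeq2 (adjusted p = 0.158 and 0.0737), that of *Fgf7* also with no library term (adjusted p = 0.0636), and that of *Fgfr2* without the female library. Mural-like cells, only 53, 44 and 51 in number, had 0 of 4 members tested called by edgeR (14.4% of 11313 genes in either direction), and DESeq2 also called none, with no adjusted p for *Fgfr2*. An unadjusted p under 0.05 was found for 1 of these 4, *Fgf10*, at 2 UMIs (adjusted p = 0.111, edgeR).

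**Figure D2:**
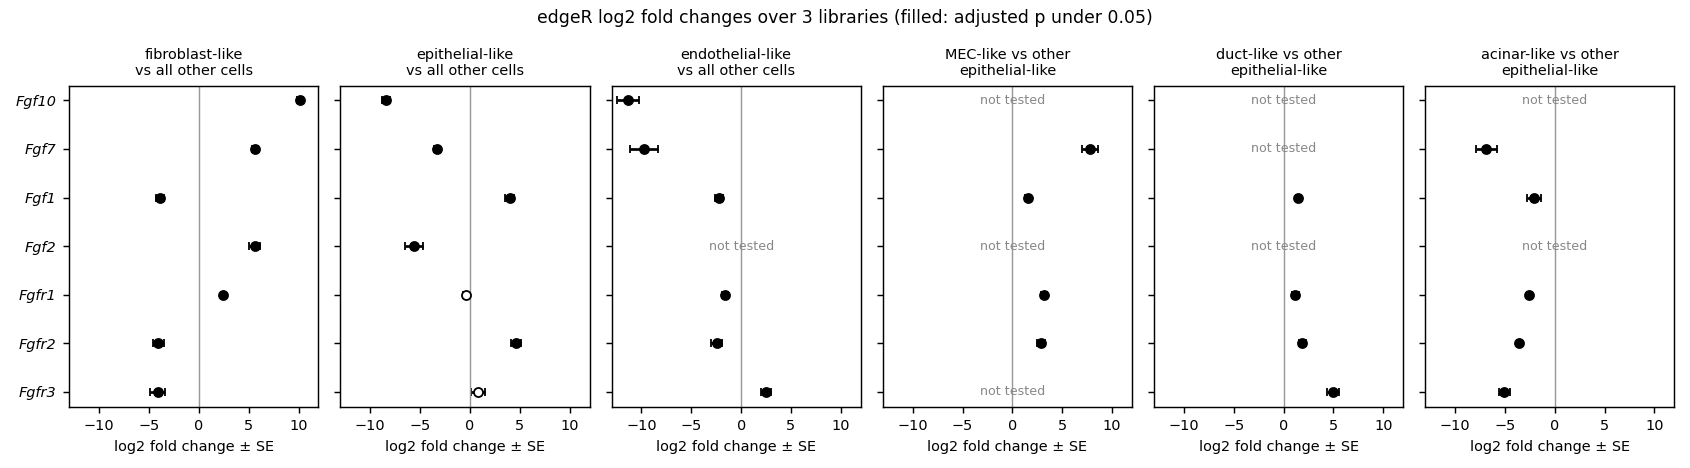
Log2 fold changes (x axis, ± SE, edgeR over 3 libraries) of the 7 genes in 6 comparisons, with filled points for an adjusted p under 0.05. *Fgf10* lies at 10.14 in fibroblast-like and -8.44 in epithelial-like cells, while the 4 members tested in MEC-like and in duct-like cells lie above 0 and the 5 in acinar-like cells below it. Some of these passed the filter on low counts only through the arm where they are high.

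Within the epithelium, MEC-like and duct-like cells were compared with the other epithelial cells to see which epithelial cells carry the receptors. In MEC-like cells 4 of the 7 members passed the filter on low counts and were higher (13.8% of 11185 genes were higher and 16.1% lower), namely *Fgf7*, *Fgfr1*, *Fgfr2* and *Fgf1*, the last by 1.54 on the log2 scale (SE 0.23, adjusted p = 1.74e-03). *Fgfr3*, with 2 MEC-like UMIs against 150, was not tested there. *Fgf7*, at 41 UMIs against 1, passed the filter only through MEC-like cells. Its direction was thus fixed by the filter, and 4 higher of 4 tested is not a result in itself. In duct-like cells 4 members passed the filter and were higher (15.6% of 10887 genes were higher and 20.1% lower), in the order *Fgfr3*, *Fgfr2*, *Fgf1* and *Fgfr1*. Here *Fgfr3*, at 140 UMIs against 12, passed the filter only through duct-like cells. *Fgf10* and *Fgf2*, with 4 and 2 UMIs in the epithelium, were tested in no comparison within it. *Fgf1* in duct-like cells had a log2 fold change of 1.43 (SE 0.21, adjusted p = 6.98e-05). That of *Fgfr1* was 1.16 (SE 0.35, adjusted p = 0.0160), or 2.14 without the female library, and its call was lost with no library term (adjusted p = 0.0710).

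Acinar-like cells, taken here with the *Tfrc*hi-like and *Car6*hi-like cells, were lower in the 5 members that passed the filter (25.8% of 11488 genes were lower and 22.9% higher). *Fgfr2* had 6.04, 5.65 and 3.18 CPM against 92.3, 57.3 and 56.2 in the other epithelial cells, a log2 fold change of -3.60 (SE 0.22, adjusted p = 1.85e-04). *Fgfr1* had 16.6, 13.9 and 13.8 against 141, 80.7 and 82.0 (-2.56, SE 0.18, adjusted p = 2.48e-04). *Fgfr3* had 3 UMIs against 149 (-5.04, SE 0.53, adjusted p = 8.13e-04), and *Fgf7* had 0 against 42, at least 19.0-fold lower (adjusted p = 8.93e-03). The groups did not overlap for any of these 4 genes, but the share of all genes tested for which this holds was not counted. *Fgf7*, *Fgfr3* and *Fgfr2* passed the filter only through the other epithelial cells, so that their direction was fixed by it. *Fgf1* had a log2 fold change of -2.10 (SE 0.70, adjusted p = 0.0473), with -1.13 without the female library, -2.78 without male library 2 and -2.69 without male library 1, where the call was lost (adjusted p = 0.0865). *Ltf*+-like cells were lower in 2 of 4 members tested (8.17% of 10728 genes). *Fgfr1* was lower by a log2 fold change of -3.16 (SE 0.45, adjusted p = 1.45e-03) and *Fgfr2* by -2.14 (SE 0.49, adjusted p = 0.0167), and *Fgfr2* by -1.25 without the female and -2.79 without the male 2 library. Neither call held with no library term (adjusted p = 0.0578 and 0.0837), and that of *Fgfr2* did not hold with library totals (adjusted p = 0.379). *Fgf1* (-0.49, adjusted p = 0.174) and *Fgfr3* (-0.90, adjusted p = 0.351) were not called there.

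*Fgf1* in acinar-like cells differed widely between the libraries. The female library had 4 UMIs, or 1.72 CPM, and the male libraries 82 and 95 UMIs, or 32.3 and 34.9 CPM. The female library was also the lowest in *Tfrc*hi-like cells, with 34.2 against 55.2 and 65.3. It was the highest in the other epithelial classes, with 197 against 152 and 141 in MEC-like and 166 against 93.8 and 114 in duct-like cells. In *Ltf*+-like cells it had 59.5 against 42.3 and 40.9, and in *Car6*hi-like cells, at 4 UMIs in all, 16.8 against 15.0 and 0. An *Fgf1* UMI was seen in 4 of 786 acinar-like cells of the female library (0.509%), 78 of 1455 of male library 1 (5.36%) and 93 of 1947 of male library 2 (4.78%), at medians of 9637, 8928 and 9257 UMIs per cell. After thinning to 1000 UMIs per cell, 1 of 772, 7 of 1455 and 3 of 1947 cells kept one, and tear-product genes took 90.7, 90.1 and 90.9% of the UMIs of these cells. The male UMIs lay in every acinar-like cluster: 46 and 53 in the cluster led by *Gm43974*, 26 and 31 in that led by *Pnliprp1*, 4 and 7 in that led by *Ly6f* and 6 and 4 in that led by *Gm26917*. All 4 female UMIs were in the *Gm43974* cluster. Uncalled barcodes with 500 to 2000 UMIs, taken as free RNA, had 6.1, 14.8 and 16.4 CPM of *Fgf1*, and the part of free RNA in the difference was not tested. With 1 female library and the cores apart, this is a difference between libraries.

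In the classes where each member was highest the libraries lay closer together. There *Fgf1*, in MEC-like cells, was 1.34 times as high in the female library as in the mean of the male libraries. *Fgf10* in fibroblast-like cells was 1.28 times as high in the female as in the mean of the male libraries, *Fgf7* 1.82 times and *Fgf2* 1.61 times. *Fgfr1* in MEC-like cells was 1.62 times as high, *Fgfr2* in MEC-like cells 1.26 times and *Fgfr3* in duct-like cells 1.40 times. In each of these cases the female value lay above both male values, but the share of all genes for which this holds was not counted. The female library was also the deepest, at a median of 3254 UMIs per cell against 1885 and 1789. Free RNA was estimated at 32.3, 53.7 and 63.8% of the UMIs of fibroblast-like cells. The part of depth and of free RNA in these ratios was not tested.

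**Figure D3:**
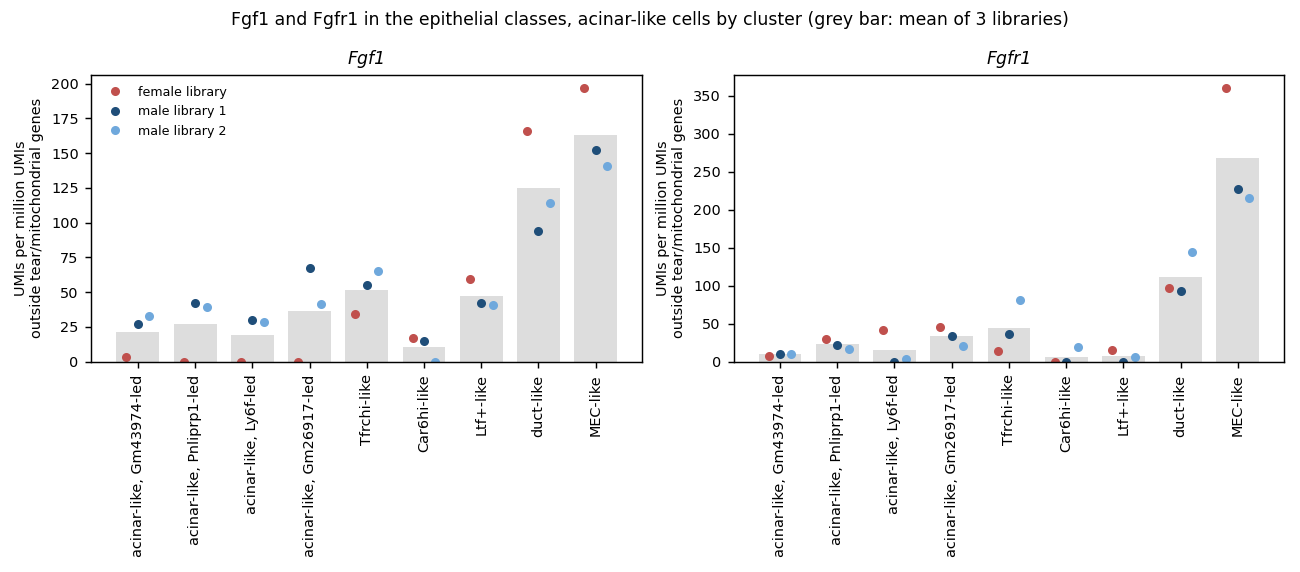
Levels of *Fgf1* and *Fgfr1* (y axis, CPM outside tear-product and mitochondrial genes) in the epithelial classes, with acinar-like cells split into 4 clusters, a point per library and a grey bar at the mean. For *Fgf1* the female point is near 0 in acinar-like clusters where the male points are not, and it is the highest of the 3 in MEC-like (197) and duct-like cells (166).

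The fibroblast-like cells fell into 7 clusters, of which 2 were named parenchymal-like (1820 cells), 1 adventitial-like (189 cells) and 1 *Pdgfrl Fxyd6* (96 cells), while 3 stayed unnamed. One of the parenchymal-like clusters (914 cells) had none of its naming markers among its 10 leading genes, which began with the antibody genes *Igkc*, *Igha* and *Jchain*, and the other (906 cells) was led by *Zfp36*. *Fgf10* had 430, 331 and 349 CPM in parenchymal-like cells (370 ± 52.4, n = 3) and 106, 32.0 and 53.2 in adventitial-like cells (63.7 ± 38.1, n = 3; 36 UMIs). Against all other fibroblast-like cells, which had 191, 201 and 154, the parenchymal-like cells were higher by 0.99 on the log2 scale (SE 0.16, adjusted p = 5.44e-05). This was 1 of 3 members tested there (6.6% of 4743 genes were higher and 6.83% lower). By cluster, *Fgf10* had 298 ± 67.3 CPM in the one led by *Igkc* and 433 ± 50.2 in the one led by *Zfp36*, and the former overlapped the unnamed cluster led by *Cxcl13* (280.4 ± 48.5). With the cluster led by *Igkc* counted among the other fibroblasts the log2 fold change was 0.80 (adjusted p = 8.63e-05), and with it as the only parenchymal-like cluster, the one led by *Zfp36* left out, it was 0.75 (adjusted p = 3.71e-03, both by edgeR). Both settings were chosen after seeing the data, and the part of plasma cell RNA in these levels was not tested. *Fgf7* was not called, at 0.26 (SE 0.20, adjusted p = 0.509), nor was *Fgfr1*, at -0.25 (SE 0.16, adjusted p = 0.393). *Fgf7* had 121, 67.4 and 45.0 CPM in parenchymal-like and 85.5, 70.4 and 57.8 in the other fibroblast-like cells, so that the female library and the male libraries pointed in opposite directions. The unnamed clusters kept *Fgf10*, with 274, 332 and 236 in that led by *Cxcl13*, 244, 102 and 268 in that led by *Saa3* and 170, 216 and 152 in that led by *Cldn10*. In adventitial-like cells *Fgfr1* had 376, 192 and 293 CPM (287 ± 92.2, n = 3), and *Fgf2* had 29, 0 and 1 UMIs, or 93.2, 0 and 26.6 CPM. The adventitial-like values were not tested.

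**Figure D4:**
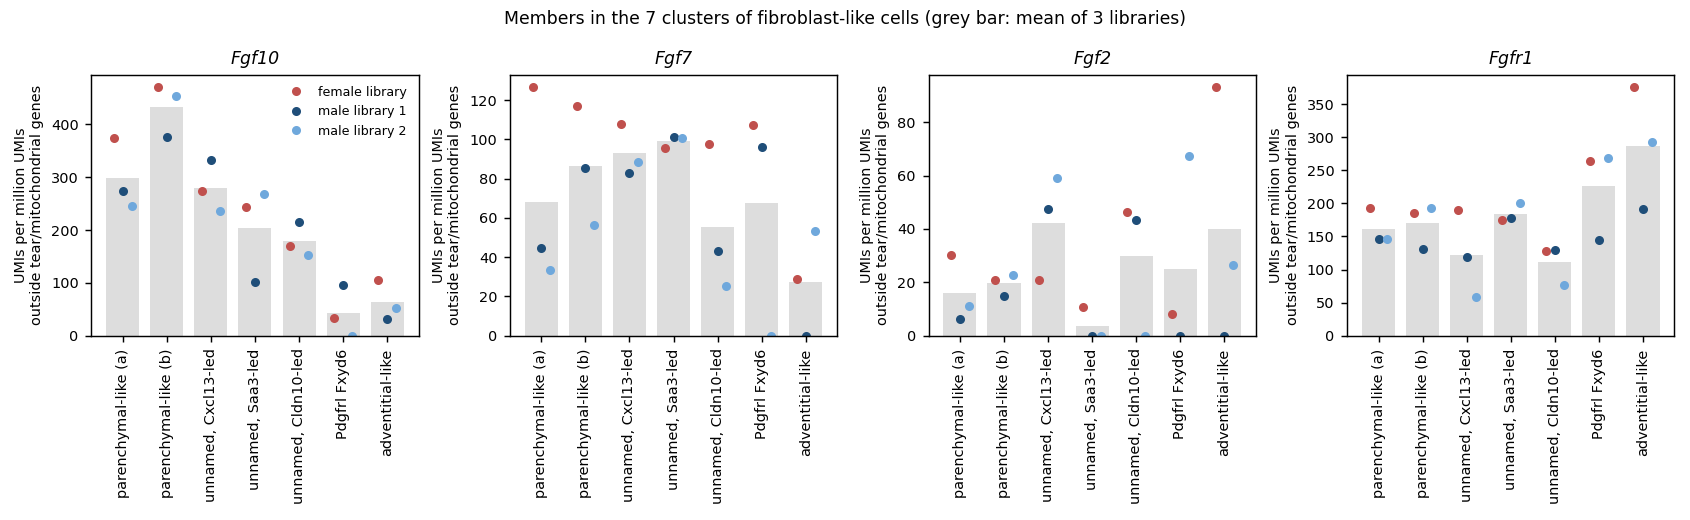
Levels of *Fgf10*, *Fgf7*, *Fgf2* and *Fgfr1* (y axis, CPM outside tear-product and mitochondrial genes) in the 7 clusters of fibroblast-like cells (a and b are the parenchymal-like ones), with a point per library and a grey bar at the mean. *Fgf10* has a mean of 370 over both parenchymal-like clusters and 63.7 in adventitial-like cells.

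*Fgf10* and *Fgf7* were found in the same fibroblasts in part. Both were seen in 172 of 1680, 6 of 717 and 4 of 483 fibroblast-like cells. Of the cells with an *Fgf10* UMI, 22.8, 4.65 and 5.19% also had *Fgf7*, against 17.1, 5.27 and 2.96% of the cells without. Depth moved with this, since the cells with both had a median of 3453 UMIs in the female library and those with neither 2906, and its part was not tested. *Fgfr1* and *Fgfr2* were both seen in 65 of 346, 6 of 325 and 5 of 276 MEC-like cells and in 46 of 1086, 2 of 328 and 0 of 270 duct-like cells. Were they found independently of each other, 57.4, 4.91 and 3.91 MEC-like and 45.1, 1.68 and 0.896 duct-like cells would hold both. The counts seen lay near these, and no test was made. The duct-like cells came from 2 clusters. *Fgfr2* had 92.6, 127 and 75.4 CPM in that led by *Krt17* and 75.7, 50.3 and 83.3 in that led by *Wfdc2*, and *Fgfr3* had 44.7, 48.3 and 37.7 against 46.2, 25.2 and 0. In neither case were the ranges apart.

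The rest of the pathway was read from lists of 18 other ligands, 4 other receptors and co-receptors, 20 FGF-binding and heparan sulfate proteins, 15 relay proteins and 17 targets and feedback inhibitors. In the fibroblast-like comparison 1 of the 18 other ligands passed the filter on low counts, *Fgf11*, an intracellular FGF homologue, which was higher (log2 fold change 2.77, SE 0.83, adjusted p = 0.0265) at 12 UMIs against 10. Of the 4 receptors and co-receptors only *Fgfrl1*, a receptor without a kinase, was tested, and it was higher in fibroblast-like cells (2.21, SE 0.34) and in MEC-like cells among epithelium (3.14, SE 0.44).

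Of the FGF-binding and heparan sulfate proteins, 11 of 20 were higher and 4 lower in fibroblast-like cells, where 18% and 22.3% of all genes were, with a median log2 fold change of 0.77 beside -0.12 over all genes. Higher were *Hspg2*, the basement membrane proteoglycan perlecan (4.05), the glypicans *Gpc3* (3.96) and *Gpc6* (3.45), and *Sulf1*, which removes sulfate groups from heparan sulfate (3.56). Lower were the carrier protein *Fgfbp1* (-3.03), the syndecans *Sdc3* (-1.58) and *Sdc4* (-1.36) and the sulfotransferase *Hs6st1* (-0.98). In epithelial-like cells 3 of 20 were higher and 7 lower, with a median of -0.14 beside -0.04, where 23.3% and 28.3% of all genes were. *Fgfbp1* was higher (2.94), as were the sulfotransferases *Hs6st2* (2.95) and *Hs2st1* (0.50), and *Hspg2* (-3.85), *Gpc3* (-2.32), *Sulf1* (-2.03) and *Sdc3* (-1.60) were lower. *Fgfbp1*, which frees FGFs from heparan sulfate, was 2.01 higher on the log2 scale in acinar-like than in other epithelial cells, while the list as a whole had 3 of 20 higher and 13 lower there (22.9% and 25.8% of all genes).

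Of 14 relay proteins tested in fibroblast-like cells, *Plcg1* (0.95) and *Ptpn11* (0.77) were higher and *Hras* (-0.60) was lower, where 18% and 22.3% of all genes were, with a median of 0.26 beside -0.12. In epithelial-like cells *Hras* (0.78) and *Map2k2* (0.60) were higher and 6 of 14 were lower, among them the adaptor *Grb2* (-1.75), the kinase *Mapk3* (-1.24) and *Plcg1* (-1.09). The shares over all genes were 23.3% and 28.3%, and the list's median was -0.08 beside -0.04.

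Of the targets and feedback inhibitors, 4 of 15 tested were higher and 5 lower in fibroblast-like cells, where 18% and 22.3% of all genes were, with a median of 0.05 beside -0.12. The Sprouty inhibitors *Spry4* (3.24), *Spry1* (2.22) and *Spry2* (0.85) and their relative *Spred1* (1.54) were higher. The transcription factors *Sox10* (-5.55), *Etv1* (-2.88) and *Sox9* (-2.63) and the phosphatase *Dusp4* (-2.43) were lower. In epithelial-like cells 4 of 14 were higher, *Sox10* (4.73), *Sox9* (3.41), *Etv1* (3.19) and *Dusp4* (0.99), and 4 were lower, *Spry4* (-4.37), *Spred1* (-1.53), *Spry1* (-1.52) and the phosphatase *Dusp5* (-0.76), shares near the 23.3% and 28.3% of all genes. *Sox10* also served as a naming marker of MEC-like cells, so that its values are not independent of the classes. Parenchymal-like fibroblasts were higher than other fibroblast-like cells in *Spry4* (1.67) and *Spry1* (1.33), with 2 of 6 tested higher and 0 lower (6.6% and 6.83% of all genes).

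Among epithelial cells this list had its highest median in MEC-like cells and its lowest in acinar-like cells, of the 4 classes compared. In MEC-like cells 11 of 15 tested were higher and 2 lower (13.8% and 16.1% of all genes), with a median of 2.75 beside -0.09 over all genes. The list holds *Sox10*, a naming marker of these cells, so the count is not wholly independent of the class. In duct-like cells 7 of 13 were higher and 4 lower (15.6% and 20.1%), with a median of 0.85 beside -0.05. In acinar-like cells 3 of 15 were higher and 11 lower (22.9% and 25.8%), with a median of -3.42 beside -0.04, or -3.32 with *Etv4*, at 0 UMIs there, set to its bound. *Etv5*, an ETS transcription factor induced by FGF signalling, and *Dusp6*, a phosphatase that removes the active mark of ERK, were named after their values were seen, as was *Etv4*. *Etv5* had 153 ± 18.5 CPM in MEC-like cells (190 UMIs) and a log2 fold change of 5.46 (SE 0.38, adjusted p = 4.62e-05). *Dusp6* had 363 ± 78.4 in MEC-like and 135 ± 21.2 in duct-like cells, with log2 fold changes of 3.53 (SE 0.47) and 1.34 (SE 0.26). In acinar-like cells both were lower, by log2 fold changes of -6.09 (SE 0.50) and -3.42 (SE 0.28). *Etv1*, of the same ETS family, went the other way, with 2.47 (SE 0.29) in acinar-like, -1.76 (SE 0.24) in MEC-like and -3.84 (SE 0.22) in duct-like cells.

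**Figure D5:**
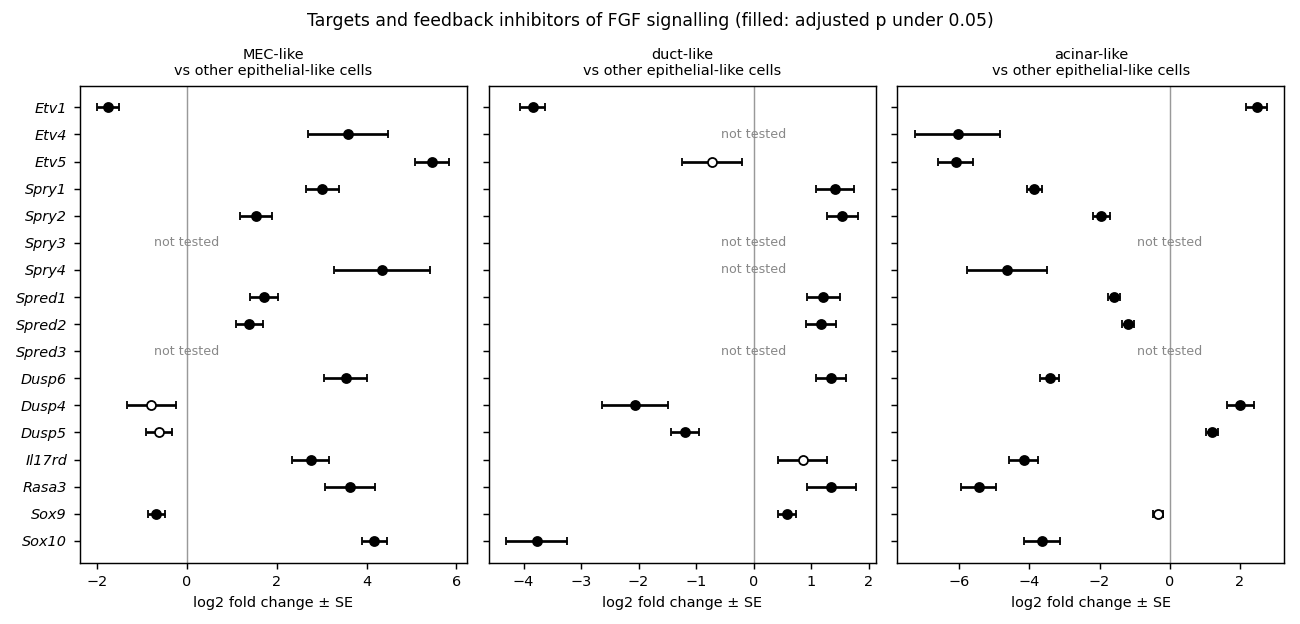
Log2 fold changes (x axis, ± SE, edgeR over 3 libraries) of the 17 targets and feedback inhibitors in MEC-like, duct-like and acinar-like cells against other epithelial cells, with filled points for an adjusted p under 0.05. Most points lie to the right in MEC-like cells (11 higher, 2 lower) and to the left in acinar-like cells (3 higher, 11 lower), with *Etv1* on the opposite side.

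The genes whose levels followed each member most closely were taken over 36 sums of 12 classes in 3 libraries, among 12031 genes, as Pearson's r of log2 levels with 5 added. These sums share libraries and free RNA, and r describes them without a test. *Fgf10* was most like *Abca8a* (0.997), *Scn7a* (0.985), *Lama2* (0.975), *Cdh11* (0.966) and *Igsf10* (0.956). *Fgf7* was most like *Cyp1b1* (0.994), *Wnt5a* (0.955), *Gpr153* (0.946), *Loxl1* (0.945) and *Capn6* (0.940), and *Fgf2* most like *H19* (0.986) and *Igsf10* (0.957), then *Lpar1* (0.922), *Abca8a* (0.919) and *Fgf10* itself (0.913). *Fgf10* and *Fgf7* had 0.758 with each other. *Fgf1* had lower values, among them those with *Usp53* (0.838), *Prkci* (0.823), *Cdh3* (0.816) and *Nrbp2* (0.813). For the receptors, *Fgfr1* was most like *Htra1* (0.831), *Dpysl3* (0.829), *Tcaf1* (0.816), *Col23a1* (0.811) and *Adamtsl3* (0.811). *Fgfr2* was most like *Dlk2* (0.882), *Sostdc1* (0.871), *Kctd1* (0.866), *Dsc3* (0.865) and *Ntng1* (0.865), and *Fgfr3* most like *Eva1a* (0.954), *Kif26a* (0.936), *Ces2e* (0.907), *Mall* (0.901) and *Col8a1* (0.883).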

How the data were processed

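The deposited values are UMI counts for each gene in each barcode, which the authors made with Cell Ranger 6.1.2 on mm10 (the submitters' processing notes). Called cells with over 500 UMIs, over 200 genes and under 15% mitochondrial UMIs were kept, and 646, 287 and 315 predicted doublets were removed (0.8% per 1000 cells). They were integrated and clustered in Seurat 5.3.0 with sctransform 0.4.2 (3000 features, 30 dimensions, Louvain resolution 1, or 0.5 for fibroblasts). The 406 genes of the members, pathway lists, tear-product, mitochondrial, ribosomal protein, sex-linked and hemoglobin groups were left out of these features unless they were naming markers. A cluster took a name from at least 3 raised markers. Counts summed per library and class were tested with edgeR 4.0.16 (quasi-likelihood test, filterByExpr, TMM scaling, library as a block, as every library gives both sums, Benjamini-Hochberg adjustment over all genes tested, threshold 0.05), with DESeq2 1.42.0 as an alternative. The scripts were tested on simulated data. Kept cells held 55375501, 37754290 and 41316199 UMIs. No source names single animals within a pool, so p-values measure the spread between these 3 libraries.

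The members and lists were chosen with earlier results of these data known. Members are always named. From each pathway list, the genes called in the fibroblast-like or epithelial-like comparison were named, at most 4 per list and direction with the largest changes. The free RNA profile was defined after seeing the data. Gene positions follow GENCODE vM21 on GRCm38. Some genes that these rules would name are not reported here.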

Additional observations from a re-analysis of the deposited data

Results flagged for a closer look

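*Fgfr1* had 21 UMIs in an unnamed cluster led by *Cd209a*, which entered no class of its own in the comparisons. There were 14, 4 and 3 UMIs in the female, male 1 and male 2 libraries, or 52.1, 20.0 and 18.7 CPM, in 10 of 78, 4 of 218 and 3 of 214 cells.

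For 4 values the female library moved one way and both male libraries the opposite way, a difference that was not tested. *Fgf1* in mural-like cells exceeded all other cells by 41.35 CPM in the female library (80.8 against 39.5, from 8 UMIs) and was at 0 UMIs in the male libraries, against 32.7 and 33.8. *Fgfr1* in epithelial-like cells exceeded other cells by 15.22 in the female library and lay below them in the male libraries (33.0 against 50 and 29.6 against 41.8). *Fgfr3* in epithelial-like cells exceeded other cells by 15.78 in the female library (20.3 against 4.49) and lay below them in the male libraries (3.22 against 5.79 and 1.08 against 1.37). Duct-like cells, where *Fgfr3* was highest, were 41.7, 11.7 and 8.48% of epithelial-like cells. *Fgf7* in parenchymal-like cells exceeded other fibroblast-like cells by 35.6 in the female library and lay below them in the male libraries (67.4 against 70.4 and 45.0 against 57.8).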

How the results depend on the processing

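Of 562 values of the members under alternatives, 532 kept their direction and their side of the threshold, 16 lost a call, 2 gained one and 12 changed sign, all 12 of them among values that were not called. A setting in which a member no longer passed the filter gave no value and is not among the 562. *Fgf7* in MEC-like cells without the female library is such a case, so the calls lost are undercounted. With library totals in place of TMM, the endothelial-like count of members called went from 6 to 3 and the *Ltf*+-like count from 2 to 1. *Fgf1* then turned to 1.18 and *Fgfr1* to 0.40 in mural-like cells, *Fgfr3* to -0.84 in epithelial-like cells, and *Fgf1* to 0.94 and *Fgfr3* to 0.075 in *Ltf*+-like cells, while *Fgfr1* in epithelial-like cells became called at -2.11. This scaling moved the median of all genes from -0.12 to 1.41 in fibroblast-like, -0.04 to -1.71 in epithelial-like, -0.09 to 2.15 in MEC-like, -0.05 to 2.26 in duct-like and -0.04 to -2.51 in acinar-like cells. Genes called higher and lower went from 2299 and 2845 to 8654 and 1072 in fibroblast-like, from 3136 and 3807 to 621 and 10873 in epithelial-like, from 1539 and 1798 to 8761 and 219 in MEC-like, from 1693 and 2184 to 9534 and 235 in duct-like, and from 2632 and 2962 to 109 and 10698 in acinar-like cells. They went from 1963 and 3069 to 6838 and 1128 in endothelial-like, from 512 and 1122 to 1707 and 167 in mural-like, from 2404 and 3370 to 4763 and 1644 in myeloid-like, from 1527 and 3191 to 3330 and 1651 in lymphoid-like, from 754 and 877 to 6209 and 144 in *Ltf*+-like, and from 313 and 324 to 322 and 165 in parenchymal-like cells.

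DESeq2 called 3 members in lymphoid-like cells in place of 5. It called 997 genes in mural-like cells (edgeR 1634), 2824 in lymphoid-like (4718) and 223 in parenchymal-like cells (637), where 353 were called with the cluster led by *Igkc* as the only parenchymal-like one. With each library left out in turn, the counts ran from 3 to 6 in endothelial-like and in lymphoid-like cells, *Fgf1* in mural-like cells ran from -9.49 to 0.23, and *Fgf7* in parenchymal-like cells ran from -0.19 to 0.31. With classes by highest marker score, mural-like *Fgf10* turned to 0.45, *Fgf1* to 0.018, *Fgfr1* to 0.36 and *Fgfr2* to 0.26. Per 1000000 of all UMIs, the levels were 159 for *Fgf10*, 42.5 for *Fgf7* and 12.2 for *Fgf2* in fibroblast-like, 89.3 for *Fgf1*, 149 for *Fgfr1* and 79.0 for *Fgfr2* in MEC-like and 19.0 for *Fgfr3* in duct-like cells. Without thinning, the mean shares of cells with a UMI were, in the same order, 26.3, 9.37, 2.85, 18.9, 27.7, 16.9 and 4.98%. The cause was not tested for these values.

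Both sums of a comparison come from the same library, which pairs them. Without the replicate block, 0 members in place of 2 were called in *Ltf*+-like cells, and calls were lost for *Fgfr3* in fibroblast-like, *Fgfr1* in duct-like and *Fgf7* in lymphoid-like cells, with no other call of a member changed. Genes called fell from 637 to 95 in parenchymal-like, from 1631 to 492 in *Ltf*+-like and from 4718 to 3074 in lymphoid-like cells. *Fgf2* and *Fgfr3*, at 139 and 213 UMIs, are limited most by depth.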

Other observations

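*Fgf18*, an FGF ligand outside the 7 genes, had 88, 5 and 0 UMIs in fibroblast-like cells of the female, male 1 and male 2 libraries. Its counts were too low for the filter and no test was made, and it was chosen after its values were seen. In endothelial-like cells 6 of 14 targets and feedback inhibitors tested were higher and 6 lower, where 15.9% and 24.8% of all genes were, with a median log2 fold change of -0.16 beside -0.16 over all genes. The 6 that were higher were *Il17rd* (2.62), *Spry4* (2.39), *Spry1* (1.80), *Spred2* (1.27), *Dusp6* (1.23) and *Spred1* (0.99), named after their values were seen.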
